A study of Bos taurus with 90 samples.

Results

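DOCK8 (ENSBTAG00000002190), a gene best known from leukocytes, was described in liver biopsies of growing and finishing steers, as 1 of 24616 genes in the count table and in all 90 libraries. The libraries came from Charolais (CH), a beef breed, and Holstein-Friesian (HF), a dairy breed, and steers of both breeds were under a year old on average when the first diet began. The 3 dietary phases followed each other in a fixed order. H1 was a high-concentrate diet in the growing phase, ZG was zero-grazed grass (grass cut and carried to the animals) in the growing phase, and H2 was the same high-concentrate diet in the finishing phase, with grass silage fed between H1 and ZG and grazing between ZG and H2. Within breed and phase the steers with the lowest and the highest residual feed intake (RFI) were taken, RFI being the feed eaten beyond what body weight and growth predict, so that low RFI is the feed-efficient state. The libraries numbered 9 low and 11 high RFI for CH in H1, 3 and 3 in ZG, and 9 and 8 in H2, and 7 low and 9 high RFI for HF in H1, 10 and 8 in ZG, and 5 and 8 in H2. Phase cannot be told apart from age and season, since every animal passed through the diets in the same order.

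DOCK8 is a guanine nucleotide exchange factor, a protein that loads the small GTPase CDC42 with GTP, and it belongs to the DOCK family, of which the other members act on CDC42 or RAC. CDC42 in turn sets the actin cytoskeleton in motion, and in T cells, B cells, NK cells and dendritic cells DOCK8 keeps migrating cells intact in dense tissue and helps to form the immunological synapse. Loss of DOCK8 in people causes a combined immunodeficiency with high IgE. Liver holds resident and passing leukocytes, among them Kupffer cells, NK cells and T cells, beside the hepatocytes that make up most of its mass.

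The gene came to attention through a difference between RFI groups in one set. DOCK8 was chosen from the genes that the study lists for HF steers in H1, and the name was taken from that list. Values of low against high RFI in HF steers of H1 are therefore given below as a description, without a test. The edgeR comparisons of phases and breeds that include HF in H1 average over both RFI groups with equal weight, whereas the permutation test of breeds in H1 compares plain means over all libraries of a breed.

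Reads counted on genes ranged from 9097695 to 63621304 per library with a median of 18858293, and DOCK8 was counted in every library with 83 to 1314 reads and a median of 332. Levels are given as CPM, the count of a gene scaled to a common library size, after TMM normalization, which evens out differences in library composition. Within the 12 groups of breed, phase and RFI, the DOCK8 level moved little with depth (r = -0.05 across the 90 libraries, on deviations from the group means) and somewhat more with the share of reads taken by the 10 most counted genes (r = 0.26, Spearman 0.16). That share ran from 22.9% to 38.5%, and the median correlation of a library with the others of its group was 0.975 over all libraries. It was under 0.95 in 5 libraries, 4 of them HF in ZG and 1 CH in H2, and these 5 ran from 9.93 to 24.3 CPM of DOCK8. Liver tissue was checked on named genes only, since 7 of 148 genes of the marker and pathway lists could be matched to an identifier and no hepatocyte, T cell, B cell, NK cell, Kupffer cell or neutrophil marker was among them. FGA, a fibrinogen chain made by hepatocytes, had a median of 12026 CPM and was at 0 in 0 of the libraries, and C5, a complement protein of hepatocytes, had a median of 2247 CPM. The other liver genes looked at had lower medians, with 191 CPM for DMGDH, 112 for HP, 61.1 for AGXT and 17.5 for BHMT2. Of the lists, the leukocyte genes that could be matched were PTPRCAP, which binds CD45, FCER1A, the IgE receptor chain, and the lymphocyte GTPases GIMAP4 and GIMAP8, at means of 3.16, 0.222, 125 and 44.3 CPM. From the lists for single leukocyte types only FCER1A, of the dendritic cell list, could be matched, and it was at 0 in some libraries. The kinds of leukocyte in the biopsies were therefore not measured. In bulk tissue, fewer cells of a type and less RNA per cell cannot be told apart.

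DOCK8 stood at 18.6 ± 5.19 CPM over all libraries (SD, n = 90), above 65.9% of the 13945 genes that passed the filter on low counts by mean CPM. Its biological coefficient of variation, the spread between animals of a group beyond counting error, was 0.220, and 42.7% of genes had a lower one. Of its variation on the log2 scale, 41.2% lay between the 12 groups. The mean level of the groups rose from 14.1 ± 2.21 CPM (SD, n = 3) in CH high RFI of ZG to 24.7 ± 5.88 CPM (SD, n = 7) in HF low RFI of H1. The 6 CH groups held the 5 lowest means, from 14.1 to 16.5 CPM. HF high RFI of H1 with 17.1 ± 2.26 CPM (n = 9), HF high RFI of ZG with 17.8 ± 2.77 CPM (n = 8) and HF low RFI of ZG with 18.2 ± 5.74 CPM (n = 10) came next. The remaining CH group, low RFI of H1, followed with 20.2 ± 4.26 CPM (n = 9), and above it lay HF low RFI of H2 with 23.8 ± 4.22 CPM (n = 5), HF high RFI of H2 with 24.6 ± 5.59 CPM (n = 8) and HF low RFI of H1. In all 11 pairs of neighbours in this order the means differed by less than the smaller SD of the pair, and the ranges overlapped in all 11.

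**Figure D1:**
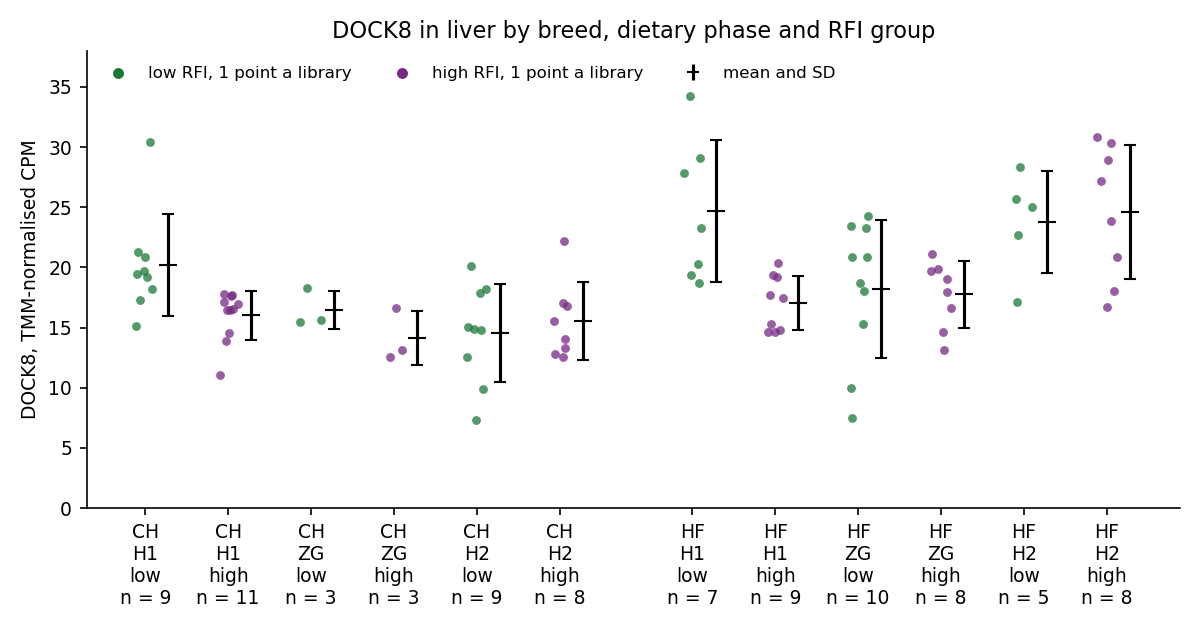
DOCK8 level in CPM (y axis) in each of the 12 groups of breed, dietary phase and RFI (x axis). Each point is a library, green for low and purple for high RFI, and the bar gives the mean and SD. The HF libraries of H2 lie between 16.7 and 30.9 CPM and the CH libraries of H2 between 7.35 and 22.2 CPM.

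The comparison of low with high RFI within a breed and phase is the one the study was built for. The set from which the gene was chosen, HF in H1, had 18.7 CPM at the lowest, 23.2 at the median and 34.3 at the highest of the 7 low RFI libraries, and 14.6, 17.5 and 20.4 CPM in the 9 high RFI libraries. The means stood at a ratio of 1.45, and 4 of the 7 low RFI libraries lay above every high RFI library.

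CH steers of H1 gave the next largest difference. DOCK8 ran from 15.2 CPM through a median of 19.5 to 30.4 CPM in the 9 low RFI libraries and from 11.1 through 16.6 to 17.8 CPM in the 11 high RFI libraries. Of the low RFI libraries 7 lay above every high RFI library, and 3 high RFI libraries lay below every low RFI library. The log2 fold change of low over high RFI was 0.35 (SE 0.10), with an adjusted p of 0.256 in the quasi-likelihood test of edgeR over 12920 genes, and 2 genes, or 0.0155%, had an adjusted p under 0.1, the threshold at which a gene is called here. DESeq2 called 160 genes, without DOCK8 (adjusted p = 0.137). DOCK8 ranked 149th by p among the genes in edgeR, of which 1518 had an unadjusted p under 0.05. An exact permutation test on its CPM with 167960 arrangements gave a two-sided p of 0.0015, and 0.006 after adjustment over the 8 permutation tests made. The highest low RFI library had 30.4 CPM and the next one 21.3 CPM. Without the highest the low RFI mean was 18.9 ± 1.98 CPM (SD, n = 8) against 16.0 ± 2.06 CPM (n = 11), with a log2 fold change of 0.25 (edgeR adjusted p = 0.406) and an exact permutation p of 0.00536.

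In the other sets the RFI groups overlapped. CH steers of ZG had 15.5, 15.7 and 18.3 CPM in the 3 low RFI libraries and 12.6, 13.1 and 16.7 CPM in the 3 high RFI libraries. The log2 fold change was 0.24 (SE 0.18, 95% interval -0.12 to 0.60, edgeR adjusted p = 0.48), with an exact permutation p of 0.3, where 3 against 3 cannot go below 0.1. CH steers of H2 ran from 7.35 to 20.1 CPM with a median of 14.9 in 9 low RFI libraries and from 12.6 to 22.2 CPM with a median of 14.8 in 8 high RFI libraries. The log2 fold change was -0.09 (SE 0.18, 95% interval -0.44 to 0.27, edgeR adjusted p = 0.998), and the exact permutation p was 0.587. Both groups thus covered much the same range, and the lowest 3 libraries of this set were all of low RFI.

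In both HF sets outside H1 the difference was small beside its error. HF steers of ZG ran from 7.53 CPM through a median of 19.8 to 24.3 CPM in 10 low RFI libraries, and from 13.2 through 18.5 to 21.2 CPM in 8 high RFI libraries. The low RFI group held both the 2 lowest and the 3 highest values, and the log2 fold change was 0.02 (SE 0.20, 95% interval -0.36 to 0.41, edgeR adjusted p = 1, exact permutation p = 0.836). HF steers of H2 had 17.2, 22.7, 25.02, 25.7 and 28.4 CPM in the 5 low RFI libraries and 16.7 to 30.9 CPM with a median of 25.5 in the 8 high RFI libraries. Low over high RFI gave a log2 fold change of -0.05 (SE 0.17, 95% interval -0.38 to 0.29, edgeR adjusted p = 1, exact permutation p = 0.78). In CH of ZG and H2 and in HF of ZG and H2, edgeR's quasi-likelihood test called 0 of 13025, 12417, 12492 and 12549 genes, or 0% each, with 1755, 355, 261 and 435 genes at an unadjusted p under 0.05 and 158, 4, 2 and 5 genes called by DESeq2.

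Averaged over the 5 sets that did not choose the gene, the RFI effect was 0.09 on the log2 scale (SE 0.08, 95% interval -0.07 to 0.25, edgeR adjusted p = 0.734 over 13945 genes). edgeR called 0 genes for this mean effect, or 0%, with 1155 at an unadjusted p under 0.05 and 3 called by DESeq2. The difference between CH and HF in the RFI effect was 0.21 in ZG (SE 0.36, adjusted p = 0.761) and -0.04 in H2 (SE 0.26, adjusted p = 1). For both differences edgeR called 0 genes, or 0%, with 766 and 287 genes at an unadjusted p under 0.05 and 0 and 2 called by DESeq2. The difference in H1 was left out, because HF in H1 chose the gene.

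Between breeds, DOCK8 was lower in CH than in HF steers in H2. The 17 CH libraries ran from 7.35 CPM through a median of 14.9 to 22.2 CPM (15.02 ± 3.62, mean ± SD), and the 13 HF libraries from 16.7 through 25.02 to 30.9 CPM (24.3 ± 4.93). Of the CH libraries 11 lay below every HF library and 9 HF libraries lay above every CH library. The log2 fold change of CH over HF was -0.68 (SE 0.13, edgeR adjusted p = 0.00755 over 12959 genes), which is 1.61-fold more in HF. edgeR called 83 genes here, or 0.64%, 40 of them higher and 43 lower in CH, and DOCK8 ranked 18th by p. A two-sided permutation test on CPM with 100000 resamples gave p = 1e-05, the smallest these can give, and 8e-05 after adjustment over the 8 tests.

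The breed difference in H2 stood in both RFI groups, and its difference between them was -0.04 on the log2 scale (95% interval -0.56 to 0.47). In low RFI steers the means were 14.5 ± 4.08 CPM (SD, n = 9 CH) and 23.8 ± 4.22 CPM (SD, n = 5 HF), a ratio of 1.64 for HF over CH, and in high RFI steers 15.5 ± 3.21 CPM (SD, n = 8) and 24.6 ± 5.59 CPM (SD, n = 8), a ratio of 1.58. The share of reads in the 10 most counted genes also differed somewhat, with a median of 30.4% in CH and 29.1% in HF of H2. With this share as a covariate the log2 fold change was -0.77 (edgeR adjusted p = 0.00136). The 1 steer number that the labels place under CH in H1 and under HF in H2 had 22.7 CPM in H2, and without it the log2 fold change was -0.69 (edgeR adjusted p = 0.0195).

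The breed difference did not pass the threshold in the other phases. In H1 the 20 CH libraries ran from 11.1 CPM through a median of 17.5 to 30.4 CPM and the 16 HF libraries from 14.6 through 19.3 to 34.3 CPM. The log2 fold change of CH over HF was -0.19 (SE 0.08, edgeR adjusted p = 0.233), and 669 of 13454 genes, or 4.97%, were called. The permutation test gave p = 0.122 (100000 resamples). In ZG the 6 CH libraries lay between 12.6 and 18.3 CPM and the 18 HF libraries between 7.53 and 24.3 CPM, 10 of the latter above every CH library and 2 below. The log2 fold change was -0.25 (SE 0.18, 95% interval -0.61 to 0.11, edgeR adjusted p = 1, exact permutation p = 0.176). For breed in ZG edgeR called 0 of 13406 genes, or 0%, with 404 at an unadjusted p under 0.05 and 14 called by DESeq2.

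**Figure D2:**
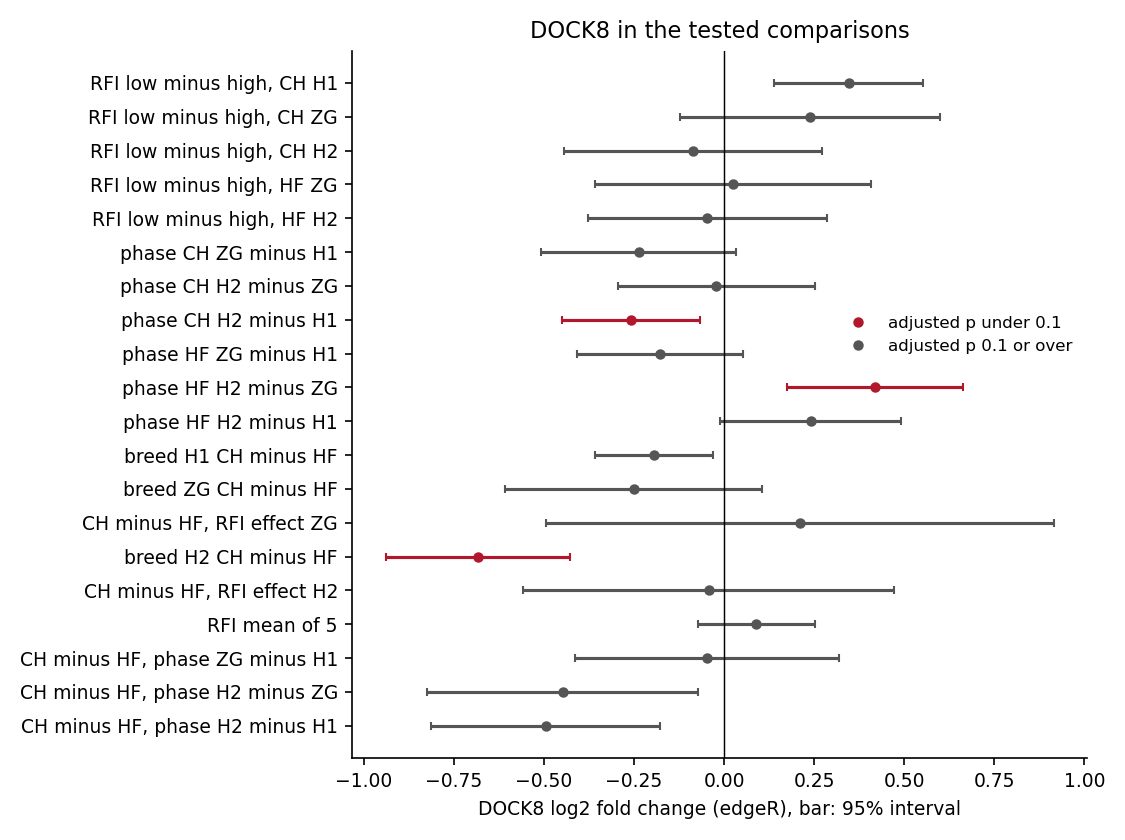
Log2 fold change of DOCK8 (x axis) in the 20 comparisons tested (y axis), with 95% intervals as bars. Red marks an adjusted p under 0.1, which 3 comparisons had: breed in H2 at -0.68, H2 against ZG in HF at 0.42 and H2 against H1 in CH at -0.26.

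Across phases, DOCK8 fell from H1 to H2 in CH steers and rose from ZG to H2 in HF steers. In CH the level was 17.9 ± 3.79 CPM (SD, n = 20) in H1, 15.3 ± 2.14 CPM (SD, n = 6) in ZG and 15.02 ± 3.62 CPM (SD, n = 17) in H2. H2 against H1 gave a log2 fold change of -0.26 (SE 0.10, edgeR adjusted p = 0.0206 over 13732 genes), and of the H1 libraries 17 of 20 lay above the H2 median. edgeR called 9337 genes, or 68%, for that comparison, and DOCK8 ranked 7504th by p, behind most of the called genes. The share of reads in the 10 most counted genes had a median of 26.3% in H1 and 30.4% in H2 of CH, and with this share as a covariate the log2 fold change was -0.40 (edgeR adjusted p = 0.0276). ZG against H1 gave -0.24 (SE 0.14, adjusted p = 0.221), with 3550 genes or 25.9% called, and H2 against ZG gave -0.02 (SE 0.14, 95% interval -0.29 to 0.25, adjusted p = 0.95), with 635 genes or 4.62% called.

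In HF the level was 20.4 ± 5.64 CPM (SD, n = 16) in H1, 18.0 ± 4.54 CPM (SD, n = 18) in ZG and 24.3 ± 4.93 CPM (SD, n = 13) in H2. H2 against ZG passed the threshold, with a log2 fold change of 0.42 (SE 0.125, edgeR adjusted p = 0.0605 over 13472 genes), or 1.34-fold, where 627 genes or 4.65% were called. The libraries overlapped: 7 of the 13 in H2 lay above every library of ZG and 6 of the 18 in ZG lay below every library of H2. The 5 low RFI libraries of H2 were left out in turn, and for 3 of them the edgeR adjusted p went to between 0.103 and 0.121. Of the 5 libraries that stand apart 4 belong to HF in ZG, and without those 5 the log2 fold change was 0.45 (edgeR adjusted p = 0.0172). H2 against H1 gave 0.24 (SE 0.13, adjusted p = 0.11), with 8236 genes or 61.1% called, and ZG against H1 gave -0.18 (SE 0.12, adjusted p = 0.201), with 7768 genes or 57.7% called. These comparisons share libraries, so their values do not stand independently of each other.

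The difference between the breeds in these changes was tested over all 90 libraries. The change from H1 to H2 was lower in CH by 0.50 on the log2 scale (log2 difference -0.50, SE 0.16, unadjusted p = 0.003 and adjusted p = 1 from edgeR), and that from ZG to H2 by 0.45 (log2 difference -0.45, SE 0.19, adjusted p = 0.846). The change from H1 to ZG differed by -0.05 (SE 0.19, 95% interval -0.41 to 0.32, adjusted p = 1). edgeR called 0 of 13945 genes, or 0%, for each of the 3 differences, with 330, 761 and 418 genes at an unadjusted p under 0.05 and 0, 27 and 1 called by DESeq2. For H2 against H1 DOCK8 ranked 17th by p among the 13945 genes.

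The libraries carry 73 steer numbers, and 14 steers had more than 1 library under the same breed, which gives 18 pairs of phases. In CH, DOCK8 was lower in ZG than in H1 in all 3 steers, by 0.21 to 0.48 on the log2 scale (log2 ratios of -0.48, -0.22 and -0.21), and lower in H2 than in H1 in 3 of 4 steers (log2 ratios from -0.49 to 0.23). In HF, it was higher in H2 than in ZG in all 3 steers, with 16.6 and 23.8 CPM, 9.95 and 25.02 CPM, and 20.9 and 29.0 CPM in ZG and H2. It was higher in H2 than in H1 in 2 of 4 HF steers and lower in ZG than in H1 in 2 of 3. The smallest two-sided p that a sign test allows over 3 steers is 0.25, so these pairs are given without a test. The deviations of the same steer from its 2 group means had r = 0.11 (Spearman 0.22) over the 18 pairs, and 8 pairs lay on the same side of both means.

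**Figure D3:**
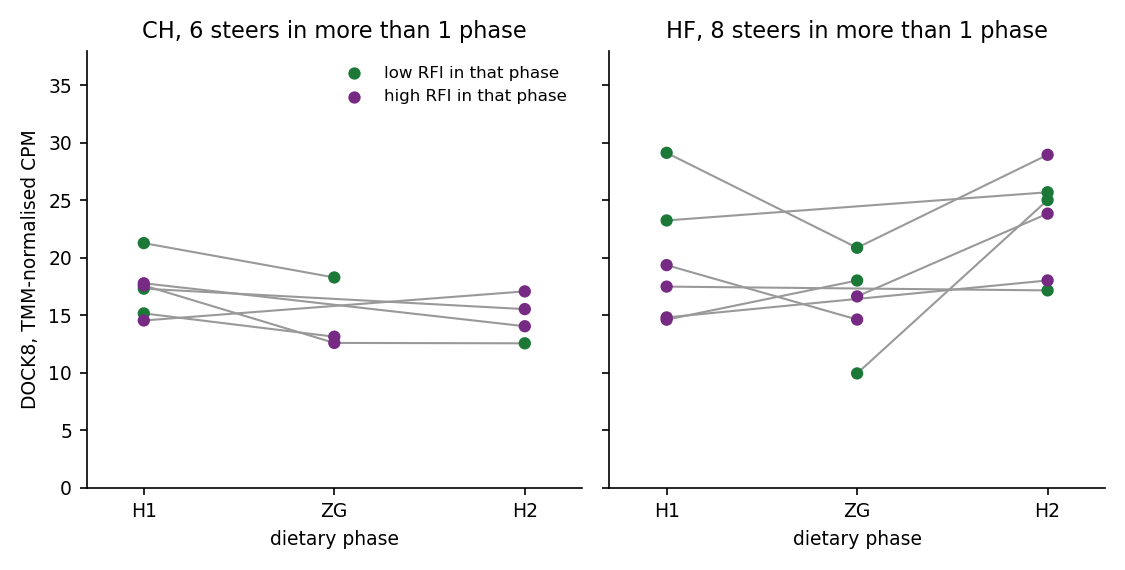
DOCK8 level in CPM (y axis) by dietary phase (x axis) in the 6 CH steers and 8 HF steers with more than 1 library, each line a steer, points green for low and purple for high RFI in that phase. The 3 HF lines from ZG to H2 all rise, and the 3 CH lines from H1 to ZG all fall.

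To see which genes share the pattern of DOCK8, its deviations from the 12 group means were correlated with those of 13944 other genes over the 90 libraries. Correlation ran from -0.64 to 0.66 with a median of 0.01, and 52 genes had r over 0.5. Names exist for 327 of these genes. The gene most like DOCK8 was PLXDC2 (ENSBTAG00000009475), a transmembrane protein with a plexin domain, with r = 0.66 (Spearman 0.62). Its r stayed between 0.62 and 0.69 when any 1 library was left out. The other 14 of the 15 genes most like DOCK8, with r down to 0.55, and the 5 least like it, with r from -0.64 to -0.57, have identifiers only. Libraries share depth and composition, so r is a description, and it is given without p.

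The correlation with PLXDC2 was positive in all 6 sets of breed and phase, from r = 0.34 in CH of ZG (n = 6) through 0.43 in CH of H1 (n = 20), 0.51 in HF of H1 (n = 16), 0.65 in HF of H2 (n = 13) and 0.68 in CH of H2 (n = 17) to 0.88 in HF of ZG (n = 18). PLXDC2 was picked for the highest r over these same libraries. Its values by set, or with a library left out, are therefore no independent support. PLXDC2 was not called between breeds in H2, with 8.95 ± 2.71 CPM (SD, n = 17) in CH and 9.15 ± 1.73 CPM (SD, n = 13) in HF, and its log2 fold change was -0.04 (SE 0.14, edgeR adjusted p = 1). The next named genes were B4GALT6, a glycosphingolipid galactosyltransferase, with r = 0.49 at rank 62 of all genes, and CLEC12A, a lectin receptor of myeloid cells, with r = 0.49 at rank 66. The 11 named genes known from leukocytes, CLEC12A included, ran from r = -0.23 for PTPRCAP through -0.11 for UNC13D, a factor of cytotoxic granule release, and -0.01 for GIMAP4 to 0.36 for GPR174, a lysophosphatidylserine receptor of lymphocytes, and 0.49 for CLEC12A. DOCK11, the other DOCK family gene with a name and also a CDC42 exchange factor, had r = 0.26. Genes made by hepatocytes lay on both sides of 0, with r = 0.40 for C5 and -0.43 for AGXT. The lowest r of a named gene was -0.47, for C5H12orf57 and C29H11orf86. DOCK11 was named as a member of the family, and PLXDC2 by a rule that itself rests on r. The other genes of this paragraph were picked after their values were seen.

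**Figure D4:**
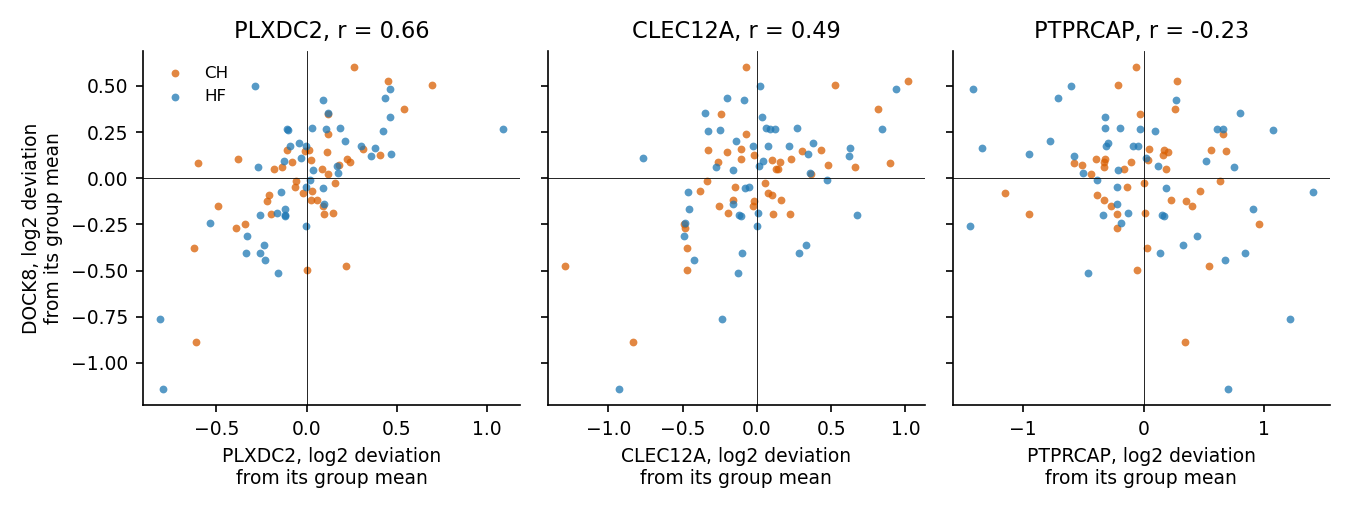
Deviation of DOCK8 from its group mean on the log2 scale (y axis) against that of PLXDC2, CLEC12A and PTPRCAP (x axes), each point a library, orange for CH and blue for HF (n = 90). The cloud rises for PLXDC2 (r = 0.66) and CLEC12A (r = 0.49) and does not for PTPRCAP (r = -0.23).

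PTPRCAP was the first pan-leukocyte gene that could be matched, and its correlation with DOCK8 was taken on log2(CPM + 0.5) within each of the 6 sets of breed and phase. In CH, r was 0.33 in H1 (n = 20, Spearman 0.45, permutation p = 0.151 for Pearson and 0.0488 for Spearman), -0.0005 in ZG (n = 6, Spearman -0.09, exact permutation p = 0.999 and 0.919) and -0.14 in H2 (n = 17, Spearman -0.11, permutation p = 0.582 and 0.678). In HF it was -0.46 in ZG (n = 18, Spearman -0.38, permutation p = 0.0508 and 0.119) and 0.10 in H2 (n = 13, Spearman 0.21, permutation p = 0.737 and 0.482), and HF in H1, the set that chose the gene, is described with r = -0.41 (n = 16) and without a test. The adjustment ran over all 6 sets, since it took in a p of HF in H1 that is not given here. After it the smallest permutation p of the 5 tested sets was 0.302 for Pearson and 0.293 for Spearman. Without the 2 libraries farthest from the PTPRCAP median, r was 0.32, -0.66 and -0.16 in CH of H1, ZG and H2, and -0.26, -0.61 and 0.24 in HF of H1, ZG and H2. On deviations from the RFI group means, r in CH turned to -0.0727 in H1 and to 0.70 in ZG. PTPRCAP rests on few reads, between 4 and 389 per library. In HF of ZG its lowest log2 deviations from the RFI group means were -1.44, -1.34 and -1.42, in steers 2069, 2242 and 5635. These libraries are among the 5 that stand apart, and their part in the r of that set was not tested.

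Of 11 named genes known from leukocytes, 10 could be tested in H2, and 2 of them fell in CH against HF while 0 rose and 8 were not called, beside 0.64% called of all genes. These are GIMAP4 and GIMAP8, GTPases of lymphocytes, with log2 fold changes of -2.73 (SE 0.49, edgeR adjusted p = 0.00471) and -1.92 (SE 0.33, edgeR adjusted p = 0.00317). GIMAP4 ran from 4.99 to 165 CPM in CH and from 8.73 to 506 CPM in HF, and GIMAP8 from 9.93 to 25.9 CPM in CH and from 18.1 to 179 CPM in HF, so the breeds overlapped in both genes. The 8 others lay between -1.10 for FCRL1, an Fc receptor-like protein of B cells (SE 0.36, adjusted p = 0.299), and 0.41 for RGS1, a regulator of G protein signalling (SE 0.31, adjusted p = 0.955). The median of the 10 was -0.34, and that of all genes tested was 0.01. The summed level of the 11 genes ran from 52.3 to 255 CPM with a median of 84.7 in CH of H2 and from 95.3 to 639 CPM with a median of 268 in HF of H2, and its part in the DOCK8 difference was not tested. Within CH of H2 the median of the sum was 77.2 CPM in low and 190 CPM in high RFI. In low and high RFI it was 149 and 77.2 CPM in CH of H1, and 191 and 210 CPM in CH of ZG. In HF it was 280 and 188 CPM in H1, 265 and 370 CPM in ZG, and 203 and 392 CPM in H2. Low over high RFI gave a median log2 fold change over 10 tested genes of 0.56 in CH of H1, beside 0.005 for all genes. It was 0.39 in CH of ZG, -0.16 in CH of H2, and -0.04 in HF of ZG and of H2. PTPRCAP, GIMAP8, GPR174, RGS1 and UNC13D have their names from the study's list for RFI in CH of H1. CLEC12A, FCRL1, STAP1 and FCGR2B have theirs from its list for CH of ZG, and GIMAP4 from that for CH of H2. In the CH sets the RFI differences of these genes and of their sums were thus partly fixed by the choice of genes. Of 10 tested, edgeR called 0 in each set, beside 0.0155% of all genes in CH of H1 and 0% in the others. The study, with DESeq2 and the same threshold, had called each of the 11 genes in the set whose list named it. Without GIMAP4 and GIMAP8 the sum of the other 9 genes had a median of 55.9 CPM in CH of H2 (35.3 to 108) and 62.9 CPM in HF of H2 (49.96 to 90.6). Of these 9, FCGR2B had the highest mean, 37.2 ± 14.9 CPM in CH and 41.6 ± 12.2 CPM in HF of H2 (SD). The sum had a mean of 58.7 CPM in CH and 65.7 CPM in HF of H2, so FCGR2B made up most of it. Which liver cells FCGR2B came from was not measured, since no endothelial or Kupffer cell marker could be matched. By low and high RFI the medians of the sum were 69.3 and 54.3 CPM in CH of H1. In CH they were 91.6 and 52.5 CPM in ZG and 54.0 and 57.3 CPM in H2. In HF they were 65.9 and 69.8 CPM in H1, 59.3 and 75.3 in ZG and 70.3 and 61.6 in H2. Within the groups, GIMAP4 and GIMAP8 had r = -0.01 and 0.15 with DOCK8 over the 90 libraries. In H1, where DOCK8 was not called between breeds, 3 of the 10 genes were lower in CH, namely GIMAP8, PTPRCAP and CLEC12A, beside 4.97% called of all genes in either direction. The list was put together after the values were seen, from names that the study lists for differences between RFI groups, and is not independent of these libraries.

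**Figure D5:**
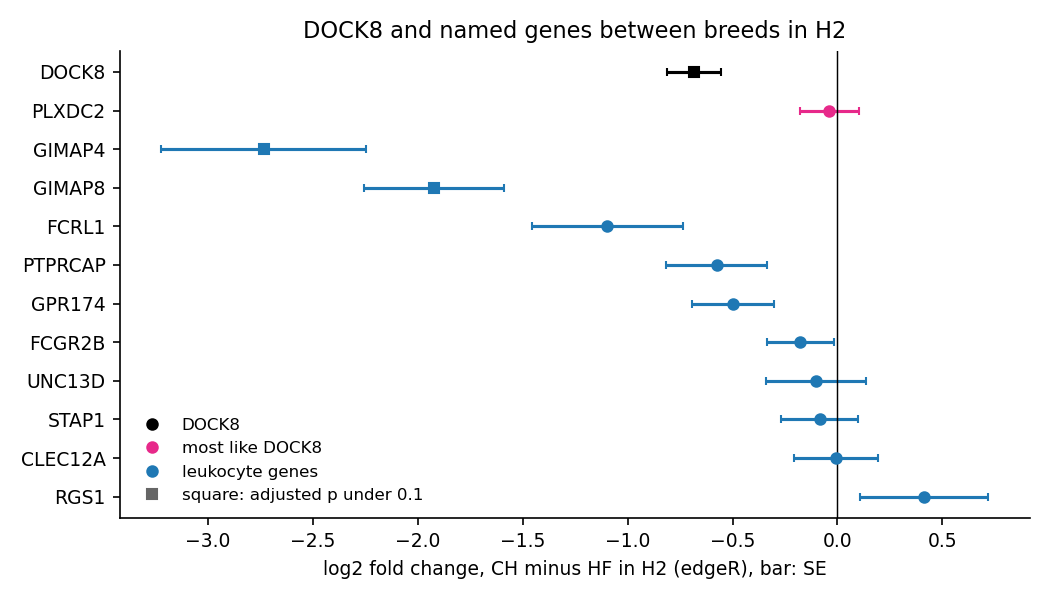
Log2 fold change of CH over HF in H2 (x axis) for DOCK8, PLXDC2 and 10 named leukocyte genes (y axis), with SE as bars and squares for an adjusted p under 0.1. GIMAP4 at -2.73, GIMAP8 at -1.92 and FCRL1 at -1.10 lie to the left of DOCK8 at -0.68, PTPRCAP at -0.57 lies close to it, and PLXDC2 lies near 0 at -0.04.

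DOCK11, the other named gene of the DOCK family, was not called between breeds in H2. It had 21.2 ± 7.87 CPM (SD, n = 17) in CH and 19.7 ± 7.13 CPM (SD, n = 13) in HF, and its log2 fold change was 0.07 (SE 0.18, edgeR adjusted p = 1).

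Between phases, DOCK11 rose in CH from H1 to H2 by 0.55 on the log2 scale (SE 0.12, edgeR adjusted p = 0.000143), where DOCK8 fell, and its change from ZG to H2 in HF was -0.24 (SE 0.17, edgeR adjusted p = 0.5). Of the 11 leukocyte genes, 2 rose and 3 fell in CH from H1 to H2, where 68% of all genes were called. In HF, 0 of the 10 leukocyte genes tested were called from ZG to H2 by edgeR, where 4.65% of all genes were called. Their median log2 fold change was -0.18, and that of all genes was -0.03.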

How the data were processed

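The authors sequenced liver mRNA as single-end reads from stranded libraries, trimmed the reads, aligned them to UMD3.1 with STAR (2.5.3a per the labels, another version in the methods), counted reads per protein coding gene of Ensembl, discarded shallow and outlying libraries and deposited raw counts. The strand setting of the counting is not given in the sources used here. The table holds identifiers alone; names came from 328 identifiers in the study's gene lists. Positions and sequences are not used here. DOCK8 and all lists were chosen with earlier results of these data known.

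Libraries were grouped as labelled. The main test was edgeR 4.0.16 (R 4.3.3; quasi-likelihood, robust, TMM, filterByExpr) with Benjamini-Hochberg adjustment over all genes tested and a threshold of 0.1. Fits used each breed and phase for RFI, each breed for phases, each phase for breeds, and all 90 libraries for differences between breeds and the mean RFI effect. The SE is the absolute log2 fold change over the root of F, and 95% intervals rest on the normal distribution. Permutation tests compared mean CPM, two-sided. Fits were tested on simulated data. Python 3.11.15 with scipy 1.17.1, numpy 2.4.6 and pandas 2.3.3 did the rest, and matplotlib 3.10.9 drew the plots.

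Genes to name were DOCK8, the 15 most and 5 least correlated with it, and the 4 of highest mean CPM of each list, and DOCK family genes. Few list genes could be matched, so 11 leukocyte genes were taken from the available names instead. A further list is not reported here. Alternatives were DESeq2 1.42.0, its size factors, other count filters, limma-voom 3.58.1 with quality weights or the steer as a replicate block, all groups in one fit, RFI left out, a threshold of 0.05, other pseudocounts, steer 1797 (labelled with both breeds) left out, and single libraries left out of groups of 5 or fewer. Another 3 were chosen after seeing the data: without the 5 libraries that stand apart, without 2 libraries far from their group, and the share of the 10 most counted genes as a covariate. Libraries with the same steer number and breed were taken as 1 animal, which pairs them across phases (r of DOCK8 deviations 0.11 over 18 pairs). In fits of both breeds the block also joined the libraries of steer 1797. P-values of the RFI tests within a breed and phase and of the breed tests within a phase measure the spread between animals. The main fits over several phases took every library as independent, so their p-values measure the spread between libraries.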

Additional observations from a re-analysis of the deposited data

Results flagged for a closer look

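In CH low RFI steers of H1, steer 1792 had 30.4 CPM of DOCK8, while the next of the 9 libraries had 21.3 CPM. In CH high RFI steers of H2, steer 419 had 22.2 CPM, while the next of the 8 libraries had 17.1 CPM. Both lie farther from the rest of their group than Dixon's test allows at its 95% level. The test was made in 9 groups of 5 to 10 libraries, at the top and at the bottom of each, and chance flags about 1 in 20 groups.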

How the results depend on the processing

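Of 277 refits that could move one of the 20 tested comparisons, 255 kept direction and side of the threshold, 3 lost the call, 5 gained it and 14 changed sign. DESeq2 gave no adjusted p for the phase by breed difference of H2 against ZG, and that fit is not counted. The breed difference in H2 stayed called in 15 refits (log2 -0.77 to -0.65, adjusted p 0.000268 to 0.023), and H2 against H1 in CH in 12 (-0.40 to -0.22, adjusted p at most 0.0402), for which the libraries of H1 and H2 were not left out in turn. H2 against ZG in HF was 0.42 and lost its call at an adjusted p under 0.05 (0.0605). Leaving out each of the 5 low RFI libraries of H2 gave 0.39 to 0.47 for it, with 3 calls lost. The other libraries of H2 and those of ZG were not left out in turn. H2 against H1 in HF was called with limma-voom and quality weights (0.28, adjusted p 0.0307; 0.24 and 0.127 with the block), with all groups in one fit (0.24) and in part with single libraries left out (0.21 to 0.29). ZG against H1 in HF was called with at least 10 counts in every library (-0.26), and breed in H1 without the 2 libraries far from their group (-0.24). Sign changes occurred in values near 0, none of them called. Without the 2 libraries far from their group RFI was 0.0022 in CH of H2, RFI by breed 0.049 in H2 and the phase by breed difference of ZG against H1 0.0008. Without the 5 libraries that stand apart RFI was -0.0415 in HF of ZG, H2 against ZG 0.017 in CH and RFI by breed 0.0126 in H2. With the share of the 10 most counted genes RFI was -0.0229 in HF of ZG and the ZG against H1 difference 0.0524. limma-voom with quality weights gave 0.0027 for RFI in HF of H2. Leave-one-out ranges were -0.115 to 0.0547 for RFI in HF of H2, -0.0601 to 0.0455 for H2 against ZG in CH and -0.15 to 0.0201 for RFI by breed in H2. With the steer as a replicate block (pairing), the ZG against H1 difference was 0.0008 and no call changed. For PTPRCAP, r in CH of H1 was -0.0727 on deviations from the RFI means, and in CH of ZG 0.051 with DESeq2 size factors, 0.0356 with a pseudocount of 2 and 0.70 on those deviations. The cause was not tested. Genes called for breed in H2 numbered 83, and 34 to 318 over the refits. For H2 against ZG in HF they numbered 627, and 355 to 4518. With 83 to 1314 reads of DOCK8 a library, the spread between libraries rather than counting limits the precision. No steer has a second library in the same phase, so animal, biopsy and library preparation cannot be told apart in that spread.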
